A study of Mus musculus with 12 samples.

Results

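Cortex of TAU58/2 mice was compared with cortex of non-transgenic mice at 10 months of age, over the genes whose mean reached 1 FPKM in the control group, the transgenic group or both. FPKM are fragments per kilobase of transcript, scaled to the fragments mapped in a library, and are used as deposited. Of 48526 genes listed, 9390 met this limit, of which 8794 (93.7%) are protein coding and 393 (4.19%) are pseudogenes. Just inside the limit were Lrrc4 (1.00 FPKM in its higher group) and Myrf (1.00 FPKM), and just outside it Plxdc2 (0.999 FPKM) and Zfp827 (0.998 FPKM).

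TAU58/2 mice carry human tau with the P301S mutation under a Thy1 promoter, which drives expression in neurons. Each group held 3 biological replicates on a C57Bl/6 background, and none of the mice was treated. The 10-month transgenic group was set against 10-month controls without the transgene, and 3 transgenic and 3 control libraries from 3-month cortex served only to show how the same genes behaved at another age. Sex and litter are not given in the labels used here. Values below are listed in the order of libraries 1, 2 and 3 of a group.

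Tau binds and stabilises axonal microtubules, and in tauopathies it is phosphorylated by several kinases, leaves the microtubule and aggregates in neurons. The cell meets misfolded protein with cytosolic chaperones of the Hsp70, Hsp90 and Hsp40 families, with chaperones inside the endoplasmic reticulum, and with degradation by the proteasome and by autophagy. Microglia, astrocytes and oligodendrocytes change their own expression in tauopathy models, so genes of each of these cell types and systems were described.

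The labels were first set against the genes through which the transgene could be counted. Mapt (chromosome 11, 104231390 to 104332090, plus strand, GRCm38), which encodes mouse tau, was at 42.7 FPKM in control library 1, at 42.6 FPKM in transgenic library 1 and between 3.31 and 12.4 FPKM in the other 4. Its log2 fold change was -0.28 (SE 0.85, exact permutation p = 0.9). Thy1 ranged from 114 to 172 FPKM in the transgenic group and from 115 to 314 FPKM in controls (exact permutation p = 0.4; 3 against 3 libraries cannot go below 0.1). Among 3-month libraries both genes were higher in every library labelled transgenic than in every control library. The 10-month levels therefore did not follow the labels, and every direction below rests on those labels.

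Library totals were between 125933 and 158077 FPKM, and read depth is unknown because no counts were used. Cortical markers were present in all 6 libraries, with Nrgn (neurogranin) between 779 and 1187 FPKM, Camk2a between 246 and 403 FPKM and Mbp (myelin basic protein) between 159 and 232 FPKM. Transgenic library 3 listed 862 of the members at 0 and control library 1 listed 681, against 464 to 517 in the other 4. The first principal component (30.2% of variance) set transgenic library 3 apart, and the second (20.1%) set control library 1 apart. Transgenic library 1 held 12.9% of its total in its 10 most abundant genes, against 4.93% to 5.90% in the others. Log2 values of 2 libraries of a group correlated across genes with r between 0.638 and 0.724, and those of different groups with r between 0.634 and 0.709, values that are across genes and not across replicates.

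Of the 9390 genes, 1 passed the threshold, which is 0.0106% (limma, Benjamini-Hochberg adjusted p under 0.05). The unadjusted p was under 0.05 for 422 genes (4.49%), of which 217 (2.31%) had the higher and 205 (2.18%) the lower values with the transgenic label. Fold changes were positive for 51.0% of genes and negative for 49.0%. Groups did not overlap for 424 higher genes (4.52%) and 377 lower genes (4.01%), together 8.53%. The median size of the log2 fold change was 0.36, below its median standard error of 0.56. Within the control group 1792 genes (19.1%) spanned more than 8 times between libraries, and within the transgenic group 2147 (22.9%). In bulk cortex, fewer cells of a type and less RNA per cell cannot be told apart.

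**Figure D1:**
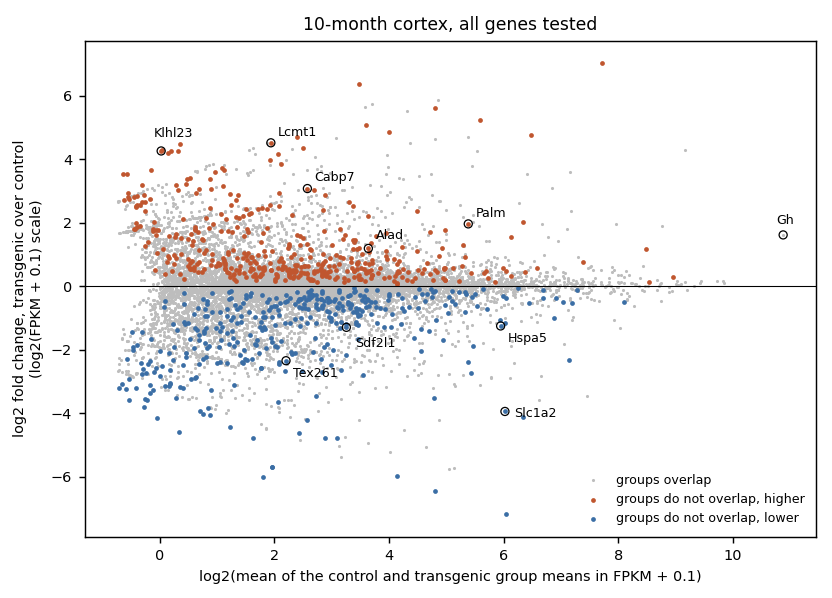
Log2 fold change at 10 months (vertical axis, log2(FPKM + 0.1) scale) against the mean level of each of the 9390 genes (horizontal axis, log2). Coloured points are the 424 higher and 377 lower genes whose 3 libraries of a group do not overlap those of the other; they are spread over all levels, and the widest fold changes lie on both sides of 0.

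Klhl23 (chromosome 2, 69821944 to 69836651, plus strand), a kelch-like protein gene, was the gene past the threshold. Its controls were all listed at 0, and its values in the group labelled transgenic were 1.51, 2.27 and 1.73 FPKM (limma adjusted p = 0.0145). At 3 months all 6 libraries listed it above 0, between 2.04 and 4.38 FPKM, so the 10-month controls are the libraries that differ from the rest. The call was lost with a pseudocount of 1 (adjusted p = 0.573) and in a fit to the 6 10-month libraries alone (adjusted p = 0.762). Leaving out any 1 of the 6 libraries gave 4 to 8 genes past the threshold, always with Klhl23.

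Cabp7 (chromosome 11, 4736892 to 4746778, minus strand), a calcium-binding protein of the calmodulin superfamily found on the trans-Golgi and lysosomes, was next in rank. It was at 12.2, 8.40 and 10.9 FPKM with the transgenic label, against 0.832, 1.92 and 0.925 FPKM in controls. The lowest transgenic value was 4.36 times the highest control value, and the log2 fold change was 3.07 (SE 0.44). It did not pass (limma adjusted p = 0.184), and passed with a pseudocount of 1 (adjusted p = 0.0405). All 6 3-month libraries, of either label, were between 0.577 and 1.52 FPKM, so Cabp7 was high only in the 10-month group labelled transgenic among the 12 libraries.

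Alad (chromosome 4, 62509169 to 62519918, minus strand), the delta-aminolevulinate dehydratase of heme synthesis, was at 15.5, 14.3 and 22.2 FPKM against 7.77, 7.34 and 7.12 FPKM in controls. At 3 months it was at 15.0, 13.4 and 11.4 FPKM against 5.50, 6.26 and 6.18 FPKM. The log2 fold changes were 1.19 (SE 0.20, limma adjusted p = 0.464) at 10 months and 1.13 (SE 0.20) at 3 months. All 6 transgenic libraries of the 2 ages were thus above all 6 controls. Its neighbours Hdhd3 and Pole3 on chromosome 4 varied widely within the 10-month transgenic group, so a step of the size seen in Alad could go unseen. Whether they share its pattern was not tested. Hdhd3, a phosphatase-like gene, was at 0.215, 0.162 and 6.48 FPKM against 3.20, 2.24 and 2.14 FPKM, and Pole3, a histone-fold subunit of DNA polymerase epsilon, at 1.56, 11.1 and 11.5 FPKM against 9.74, 6.94 and 8.21 FPKM, and the groups of both overlapped. No other gene had an adjusted p below 0.952, so the genes that follow are described by their values.

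Other genes with the smallest unadjusted p among those that were higher, above 0 in all 6 libraries and at 5 FPKM or more in a group included membrane and mitochondrial proteins. Palm (paralemmin, a lipid-anchored protein of the neuronal plasma membrane) was at 61.7, 56.7 and 80.7 FPKM against 18.8, 14.4 and 17.4 FPKM (log2 fold change 1.96, SE 0.41). Vstm2l, an immunoglobulin-domain protein of neurons, was at 47.2, 39.9 and 59.5 FPKM against 15.8, 13.4 and 12.9 FPKM (log2 fold change 1.78, SE 0.34). In both genes the 3 controls of 10 months lay together, while 3-month controls reached 54.6 FPKM for Vstm2l and 83.1 FPKM for Palm, levels within the range of the 10-month transgenic group or above it.

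Timm10, a chaperone of the mitochondrial intermembrane space, was also among the 12 and was at 16.3, 17.2 and 27.3 FPKM against 5.22, 3.24 and 4.43 FPKM. Tomm70a, a receptor of the mitochondrial outer membrane translocase, was at 27.0, 24.4 and 40.9 FPKM against 12.1, 15.2 and 14.1 FPKM. Coa3, an assembly factor of cytochrome c oxidase, was at 56.2, 47.6 and 19.2 FPKM against 13.9, 12.1 and 8.77 FPKM. The groups of each are apart, by 3.11 times for Timm10, 1.61 times for Tomm70a and 1.38 times for Coa3. At 3 months Coa3 again did not overlap (73.7, 57.5 and 55.5 against 34.1, 14.7 and 10.3 FPKM), whereas the 3-month groups of Timm10 and Tomm70a did.

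Lcmt1, the methyltransferase that modifies the catalytic subunit of protein phosphatase 2A, a tau phosphatase, was at 4.19, 7.45 and 10.1 FPKM against 0.0950, 0.261 and 0.295 FPKM. Its groups were 14.2 times apart at 10 months, and at 3 months it stood at 6.24, 6.93 and 6.09 FPKM against 0.0894, 5.20 and 0.165 FPKM. A control library of 3 months therefore reached nearly the transgenic level. Arl6ip1, a membrane-shaping protein of the endoplasmic reticulum, was at 95.2, 86.6 and 118 FPKM against 20.8, 24.5 and 75.5 FPKM. It passed without control library 3 (limma adjusted p = 0.00227), the control nearest to the transgenic libraries, and all 6 3-month libraries were between 88.2 and 99.9 FPKM. Ly6e, an interferon-inducible surface protein, was at 24.1, 20.6 and 16.0 FPKM against 9.14, 10.2 and 11.7 FPKM, and Mkrn2, a ubiquitin ligase, at 6.85, 7.50 and 9.12 FPKM against 1.87, 5.23 and 1.69 FPKM.

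The same rule gave 12 lower genes. Btrc, the substrate receptor of an SCF ubiquitin ligase that acts on beta-catenin, was at 5.47, 5.42 and 4.01 FPKM against 9.45, 9.80 and 12.6 FPKM (log2 fold change -1.08, SE 0.22). Tex261, a protein of transport from the endoplasmic reticulum, was at 1.66, 1.44 and 1.16 FPKM against 7.86, 8.04 and 6.87 FPKM (log2 fold change -2.35, SE 0.49). Rragd, a Rag GTPase that brings mTORC1 to the lysosome, was at 2.32, 2.99 and 1.33 FPKM against 21.3, 7.39 and 11.8 FPKM. The 3 groups of values are apart by 1.73, 4.14 and 2.47 times.

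Atp6ap2, an accessory subunit of the vacuolar proton pump, was the most abundant of the lower genes, at 35.1, 39.7 and 43.6 FPKM against 90.1, 79.9 and 79.7 FPKM (log2 fold change -1.08, SE 0.29). In 3-month libraries its values were near 1 of the same 2 levels in each case, 30.8, 36.7 and 35.5 FPKM in controls and 83.2, 34.4 and 72.7 FPKM in transgenic libraries. Slc25a22, a mitochondrial glutamate carrier, was at 12.9, 13.5 and 15.7 FPKM against 25.5, 22.3 and 24.6 FPKM, and Coq2, an enzyme of coenzyme Q synthesis, at 5.29, 8.83 and 5.92 FPKM against 12.8, 17.4 and 13.7 FPKM. Celf5, a neuronal RNA-binding splicing factor, was at 4.05, 5.71 and 1.40 FPKM against 11.1, 14.8 and 19.2 FPKM. Dpp9, Scamp4, Fam193b, Gpatch1 and Frg1 made up the 12, with log2 fold changes between -0.88 and -1.77.

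**Figure D2:**
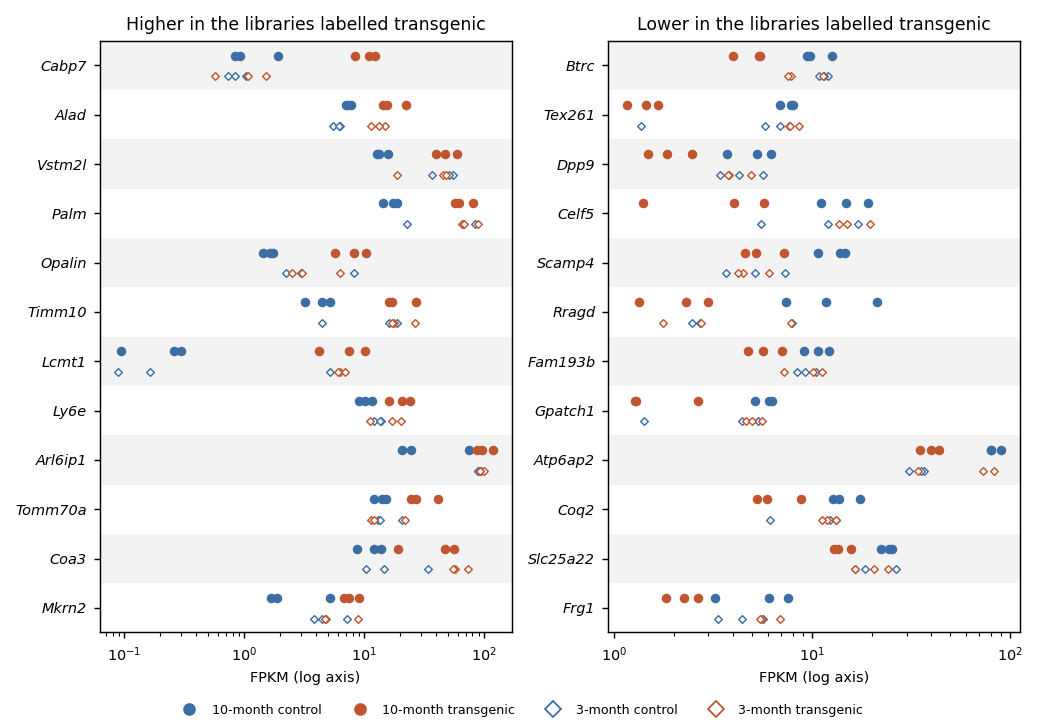
FPKM per library (log axis) of the 12 higher and 12 lower genes with the smallest p by the rule; filled circles are 10-month and open diamonds 3-month libraries, blue control and orange transgenic. The filled circles of each gene separate by label, as the rule requires, while the diamonds of 20 of the 24 genes overlap between labels.

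Of the 12 higher genes, 3 (Alad, Lcmt1 and Coa3) also did not overlap in the same direction at 3 months, and 9 overlapped. Of the 12 lower genes, 11 overlapped at 3 months and Tex261 did not overlap in the opposite direction. Over all genes, 4.30% were higher and 3.41% lower without overlap at 3 months. The 3-month values did not enter the conditions on overlap and level, but all 12 libraries entered the fit whose p ranked these genes. A small spread within the 3-month groups thus favoured a gene, and the counts at 3 months are not an independent check.

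Several genes were listed at 0 in a whole group. Mn1, a transcriptional coregulator, was at 3.38, 2.96 and 0.564 FPKM with the transgenic label, and its 3 controls were listed at 0. Htr1a, a serotonin receptor, was at 1.68, 2.08 and 1.83 FPKM, and Lsm5, a U6 snRNA-binding protein, at 2.46, 0.658 and 2.95 FPKM, each also listed at 0 in controls. In the opposite direction Kcnk13, a two-pore potassium channel, was at 2.44, 2.26 and 2.28 FPKM in controls and listed at 0 in the 3 transgenic libraries. Ppp4r2, Nfia and Cbll1 were also listed at 0 there, but their controls were uneven and partly near 0. Those of Ppp4r2 were at 0.0306, 7.62 and 0.000614 FPKM, of Nfia at 2.61, 0.0805 and 2.07 FPKM, and of Cbll1 at 2.45, 0.249 and 1.72 FPKM. In all, 11 genes were listed at 0 only in all controls and 9 only in all transgenic libraries. At 3 months Htr1a was at 2.49 FPKM in a control and 2.53 FPKM in a transgenic library and listed at 0 in the other 4, so the switch to 0 does not keep to a label there.

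Chaperones of the endoplasmic reticulum and genes of its stress response were lower as a list. Of 15 measured, 11 had negative fold changes (median -0.52), where 49.0% of all genes were negative and the median was 0.01, and in 4 the groups did not overlap and were lower, where 4.01% of all genes were lower without overlap. None passed over all genes. Hspa5, which encodes BiP, the Hsp70 of the endoplasmic reticulum, was at 45.2, 29.7 and 34.6 FPKM with the transgenic label, against 102, 73.8 and 84.4 FPKM in controls (log2 fold change -1.25, SE 0.41). The highest transgenic value was well under the lowest control.

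Under stress of the endoplasmic reticulum, ATF6 with NF-Y binds an element in the promoters of several of these genes. That element, CCAAT followed after 9 bases by CCACG, was searched on both strands in the 250 bases before each RefSeq gene start (GRCm38.p6), and a match is a description of letters only. It was found in 37 of 32851 windows (0.113%) and in 5 of the 14 genes of the list that had a window, Hspa5, Calr, Pdia6, Canx and Hsp90b1 (35.7%). The windows of the 3 genes whose groups do not overlap and that hold a match are shown 5′ to 3′ on the gene's strand with the match in capitals. They are chr2:34771840-34772089 (plus) for Hspa5, chr8:84846932-84847181 (minus) for Calr and chr12:17266339-17266588 (plus) for Pdia6.
Hspa5: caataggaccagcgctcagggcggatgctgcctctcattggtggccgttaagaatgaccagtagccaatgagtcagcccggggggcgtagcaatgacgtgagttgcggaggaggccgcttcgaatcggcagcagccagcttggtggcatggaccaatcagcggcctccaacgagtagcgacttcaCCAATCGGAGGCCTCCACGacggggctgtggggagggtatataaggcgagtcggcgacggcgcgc
Calr: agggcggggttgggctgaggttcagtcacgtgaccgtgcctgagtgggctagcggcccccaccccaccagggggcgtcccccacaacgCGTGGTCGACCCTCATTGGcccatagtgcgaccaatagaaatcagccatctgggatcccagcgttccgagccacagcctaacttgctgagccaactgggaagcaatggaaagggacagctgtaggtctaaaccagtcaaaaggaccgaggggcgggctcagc
Pdia6: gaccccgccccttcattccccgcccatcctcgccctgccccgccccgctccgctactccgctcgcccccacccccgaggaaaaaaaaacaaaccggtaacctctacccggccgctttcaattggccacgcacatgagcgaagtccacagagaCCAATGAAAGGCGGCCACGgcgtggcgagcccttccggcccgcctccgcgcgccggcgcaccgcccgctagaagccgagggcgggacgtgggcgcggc

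The match begins 65 bases before the start in Hspa5, 162 in Calr, where it lies on the opposite strand, and 98 in Pdia6. Calr (calreticulin, a lectin chaperone) was at 82.1, 84.4 and 50.0 FPKM against 115, 103 and 90.0 FPKM (log2 fold change -0.54, SE 0.23). Pdia6, a protein disulfide isomerase, was at 15.5, 16.1 and 16.5 FPKM against 23.4, 20.9 and 18.8 FPKM (log2 fold change -0.39, SE 0.19). Both were lower in all 3 transgenic libraries than in any control, by smaller steps than Hspa5. The other 2 genes with a match, Hsp90b1 (the Hsp90 of the endoplasmic reticulum, log2 fold change -0.24, SE 0.64) and Canx (calnexin, 0.38, SE 0.35), overlapped.

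Sdf2l1, a cofactor of BiP with no match in its window, was at 5.89, 3.54 and 6.55 FPKM against 20.3, 9.24 and 11.2 FPKM (log2 fold change -1.30, SE 0.40). Pdia4, another isomerase, was at 12.0, 9.74 and 12.1 FPKM against 29.2, 10.1 and 17.5 FPKM, and overlapped. Among regulators, Ddit3 (CHOP) was at 2.20, 2.34 and 4.05 FPKM against 4.16, 10.8 and 3.12 FPKM, Atf4 at 104, 24.4 and 120 FPKM against 115, 86.4 and 89.8 FPKM, and Xbp1 at 21.98, 3.65 and 19.8 FPKM against 7.19, 4.46 and 21.9 FPKM. These transcription factors of the response overlapped between the groups, and the fold change of Xbp1 was positive (0.39, SE 0.90).

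Transgenic library 2 was the lowest library for the list, and without it 8 of 15 genes were negative, with a median of -0.39. Leaving out each library in turn gave medians between -0.65 and -0.24 and 4 to 6 genes whose groups do not overlap. Overlap is rarer for any gene when a group is smaller, and the share of all genes was not computed for those counts. At 3 months 11 of the 15 were also negative, with a median of -0.14, and for 0 of them did the groups not overlap. Hspa5 at 3 months was at 58.4, 54.9 and 52.3 FPKM against 45.3, 19.7 and 77.2 FPKM, so the 3-month controls spanned the whole range of the transgenic libraries.

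Cytosolic chaperones were lower as well, with 15 of 17 negative (median -0.47), against 49.0% of all genes. Stip1 (Hop), which bridges Hsp70 and Hsp90, was at 54.5, 55.2 and 61.2 FPKM against 83.0, 69.0 and 69.4 FPKM (log2 fold change -0.37, SE 0.15). Hspa4, an Hsp110 family member, was at 35.9, 34.1 and 34.2 FPKM against 41.9, 39.3 and 37.7 FPKM (log2 fold change -0.19, SE 0.13). With Hspa1a, which has the near-identical copy Hspa1b and is therefore uncertain, these were the 3 of 17 members whose groups do not overlap, against 4.01% of all genes that were lower without overlap. Hspa8, the constitutive Hsp70, was at 305, 345 and 430 FPKM against 611, 425 and 465 FPKM, and Hsp90ab1 at 370, 399 and 407 FPKM against 445, 397 and 424 FPKM, both overlapping.

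The count of negative members stayed between 14 and 16 with any 1 library left out, and the median between -0.61 and -0.26. The number of members without overlap was 5 to 10, in place of 3, without transgenic library 1 or 3 or control library 2 or 3. A smaller group makes overlap rarer for any gene, and the share of all genes was not computed there, so the rise is not a stronger difference. At 3 months 9 of 17 were negative, with a median of 0.00. Their summed level was highest in control library 1, at 1802 FPKM, against 1115 to 1472 FPKM in the other 5. Without that library the cytosolic median was -0.26 and that of the endoplasmic reticulum list -0.24. Of the 12 cytosolic chaperones with a promoter window 1 (8.33%), Dnajb6, held a heat shock element (GAA, TTC and GAA with 2 bases between them, on either strand). The share over all windows was 0.466%. Some of the 12 genes have more than 1 window and count if any window matches, so the gene share and the window share are in unlike units.

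**Figure D3:**
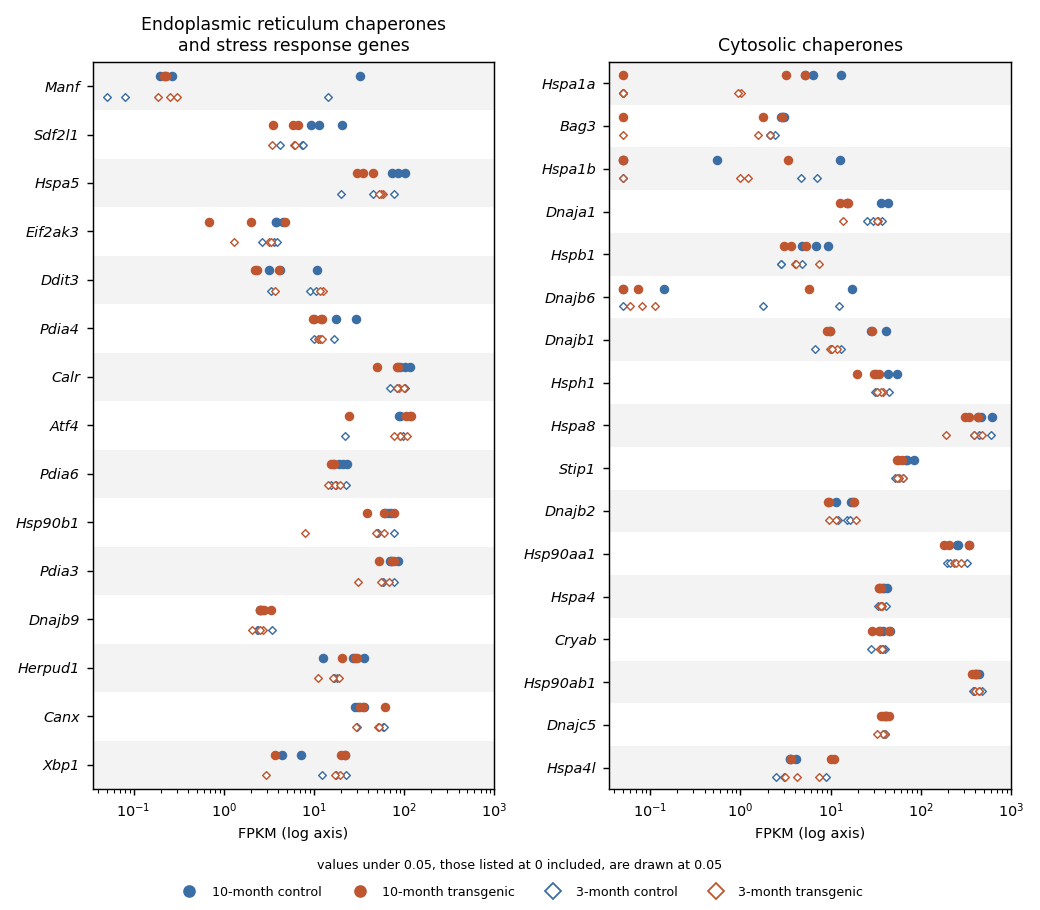
FPKM per library (log axis) of 15 endoplasmic reticulum chaperones and stress response genes (left) and 17 cytosolic chaperones (right), ordered by the 10-month fold change; filled circles are 10-month and open diamonds 3-month libraries, blue control and orange transgenic. The 10-month circles of Hspa5 and Sdf2l1 separate by label, while most other genes overlap.

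Genes of protein degradation had medians near that of all genes. Of 29 proteasome subunits 23 were positive with a median of 0.07, and without transgenic library 3 only 6 were positive and the median was -0.09. Psmd13, a lid subunit, was the member whose groups do not overlap, at 21.9, 20.4 and 19.9 FPKM against 16.8, 13.2 and 14.8 FPKM (log2 fold change 0.48, SE 0.20). Of 22 autophagy genes 14 were positive (median 0.06), and the groups of all 22 overlapped. Their median was between -0.06 and 0.09 with 1 library left out. Among 21 lysosomal genes 12 were positive (median 0.07), and Psap, the precursor of the saposins, was at 380, 385 and 393 FPKM against 363, 356 and 348 FPKM, a small step with tight groups (log2 fold change 0.12, SE 0.12). Grn, which encodes progranulin, a partner of Psap in lysosomal transport, had a log2 fold change of -0.20 (SE 0.55).

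Of 14 tau phosphatase genes, which include subunits and regulators of protein phosphatase 2A, 7 were positive and 7 negative, and Lcmt1 was the member whose groups do not overlap. Ppp2r1a, the abundant scaffold subunit, was level at 156, 154 and 144 FPKM against 175, 154 and 150 FPKM (log2 fold change -0.07, SE 0.13). Among 19 tau kinase genes 11 were negative (median -0.22, between -0.39 and -0.02 with 1 library left out). Cdk5r1, which encodes the p35 activator of Cdk5, was at 52.8, 1.87 and 36.7 FPKM against 59.1, 55.1 and 58.5 FPKM. A similarly low value occurred at 3 months, where transgenic library 2 was at 2.63 FPKM and the other 5 libraries between 27.2 and 57.4 FPKM. Gsk3b, a main tau kinase, was at 12.9, 14.2 and 2.76 FPKM against 10.7, 11.5 and 12.3 FPKM, so 2 transgenic libraries were above every control and 1 below (log2 fold change -0.51, SE 0.53).

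Stmn3, a stathmin that destabilises microtubules, was at 417, 397 and 676 FPKM against 302, 193 and 173 FPKM (log2 fold change 1.16, SE 0.44) and was the member of 14 tau and microtubule-binding genes without overlap. Tubb4a, a beta tubulin of neurons and oligodendrocytes, was at 36.0, 35.2 and 29.6 FPKM against 38.7, 337 and 367 FPKM. Its libraries took 1 of 2 levels, and 3-month libraries did the same, at 394, 39.5 and 33.9 FPKM against 401, 361 and 382 FPKM. Of 19 genes of axonal motors 13 were negative (median -0.09), and none was without overlap. Without transgenic library 3, 11 were positive (median 0.04). Without control library 1, 5 were lower without overlap, a count from a smaller group for which the share of all genes was not computed.

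Synaptic genes had fold changes of both signs, and none passed the threshold. Gria2, the AMPA receptor subunit that limits calcium entry, was at 7.93, 12.2 and 9.36 FPKM against 12.5, 17.8 and 15.0 FPKM (log2 fold change -0.62, SE 0.22), while Grik5, a kainate receptor subunit, was at 36.5, 35.1 and 39.8 FPKM against 25.1, 31.3 and 19.7 FPKM (log2 fold change 0.57, SE 0.20). Grin3a, an NMDA receptor subunit, was at 0.0812, 0.412 and 0 FPKM against 1.97, 2.58 and 1.08 FPKM. Of 17 genes of the postsynaptic density 12 were negative (median -0.15), but without transgenic library 3, 10 were positive (median 0.05). Among them were Dlg1 (SAP97) at 3.18, 2.90 and 1.09 FPKM against 3.89, 4.97 and 4.33 FPKM and Dlg4 (PSD-95) at 103, 99.2 and 92.1 FPKM against 107, 110 and 105 FPKM. The step of Dlg4 was within its standard error (log2 fold change -0.13, SE 0.15).

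Of the activity-regulated genes Arc was at 101, 108 and 108 FPKM against 204, 114 and 147 FPKM, and Egr4 at 18.2, 22.2 and 24.0 FPKM against 0, 0 and 1.66 FPKM. These 2 genes of the same class thus lay on opposite sides. Of 16 neuropeptides and granins 13 were positive (median 0.19, between 0.20 and 0.38 with 1 library left out), with Scg2 (secretogranin) at 82.9, 71.1 and 78.6 FPKM against 68.3, 56.1 and 62.7 FPKM. Sst (somatostatin) was at 304, 286 and 400 FPKM against 0, 267 and 0.495 FPKM, and among 3-month libraries it was above 300 FPKM in 1 of each label and below 2 FPKM in the other 4, so it too took 1 of 2 levels.

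Of 12 excitatory neuron genes 10 were negative (median -0.29), none without overlap. The median was -0.55 without control library 1 and -0.73 without control library 2, but -0.26 without control library 3 and -0.21 without transgenic library 3. Leaving out control library 2 gave 2 members lower without overlap, a count from a smaller group for which the share of all genes was not computed. At 3 months the list went the other way, with 8 of 12 positive and a median of 0.29. Slc17a7 (the vesicular glutamate transporter of cortical neurons) was at 193, 98.2 and 211 FPKM against 230, 207 and 205 FPKM. Of 19 genes of frontotemporal dementia and App processing 15 were negative (median -0.19), and 12 to 16 were negative with 1 library left out. Tardbp, which encodes TDP-43, was at 10.1, 12.2 and 10.8 FPKM against 13.8, 16.9 and 16.6 FPKM, and Adam10, the alpha-secretase, at 10.6, 3.60 and 9.87 FPKM against 11.6, 11.2 and 12.3 FPKM. Ncstn, the nicastrin subunit of gamma-secretase, was at 12.997, 12.8 and 11.3 FPKM against 9.30, 10.2 and 9.56 FPKM.

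Glial genes were led by oligodendrocytes, whose list had 12 of 15 positive (median 0.30, between 0.17 and 0.52 with 1 library left out). In 3 members the values were higher without overlap, against 4.52% of all genes. Without control library 1 they were higher in 7, but the smaller group makes overlap rarer for any gene, and the share of all genes was not computed there. At 3 months 7 of the 15 were positive (median -0.01). Opalin, a membrane protein of myelinating cells, was at 8.23, 5.73 and 10.3 FPKM against 1.66, 1.75 and 1.43 FPKM, while 3-month libraries of both labels ranged from 2.25 to 8.17 FPKM. Gjc3, a connexin of oligodendrocytes, was at 3.43, 3.21 and 4.10 FPKM against 1.91, 1.78 and 2.26 FPKM, and Mag at 11.4, 17.7 and 20.9 FPKM against 10.8, 4.18 and 9.70 FPKM. The abundant Mbp overlapped.

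In astrocytes Gfap, the classic marker of reactive cells, was at 28.3, 26.5 and 34.8 FPKM against 21.5, 28.6 and 22.3 FPKM, and the groups overlapped. Slc1a2, the main glutamate transporter, was at 7.96, 10.3 and 3.66 FPKM against 44.2, 158 and 165 FPKM (log2 fold change -3.95, SE 1.26). At 3 months it stood at 4.43, 13.5 and 149 FPKM against 16.7, 170 and 129 FPKM, low or high within either label. Sox9, a transcription factor of astrocytes, was at 4.47, 4.62 and 4.00 FPKM against 2.59, 2.81 and 3.91 FPKM (log2 fold change 0.50, SE 0.34).

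Homeostatic microglia genes were positive in 10 of 14 (median 0.06), and in 6 without control library 3 (median -0.04). None was without overlap, with Trem2 at 2.14, 1.65 and 2.28 FPKM against 2.01, 2.56 and 1.37 FPKM. Of 13 genes of disease-associated microglia 9 were positive (median 0.15), but 6 without transgenic library 3 (median -0.03), and the median was 0.40 without transgenic library 2. The list holds 18 genes, of which Cst7, Itgax, Clec7a and Lgals3 were listed at 0 in all 6 libraries and Gpnmb reached at most 0.309 FPKM. At 3 months 5 of the 13 were positive (median -0.09), and 2 were lower without overlap, against 3.41% of all genes. At 10 months 3 were higher without overlap, against 4.52% of all genes. Spp1 (osteopontin) was at 11.5, 5.08 and 3.86 FPKM against 2.30, 3.67 and 1.54 FPKM, Axl, a receptor for dying cells, at 7.49, 8.20 and 7.16 FPKM against 3.80, 6.06 and 6.87 FPKM, and Cd9 at 15.0, 12.0 and 16.5 FPKM against 11.9, 11.8 and 10.5 FPKM. Apoe, the most abundant member, was at 382, 278 and 793 FPKM against 555, 596 and 347 FPKM and overlapped widely. C1qc, of the first complement component, was at 4.77, 2.76 and 4.03 FPKM against 15.5, 4.31 and 10.1 FPKM, while C1qa had a log2 fold change of 0.15 (SE 0.37).

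All 6 interferon response genes measured were positive (median 0.72), and 4 without control library 1. The median was between 0.41 (without transgenic library 1) and 1.67 (without control library 3). Bst2 (tetherin) was at 4.29, 2.35 and 2.38 FPKM against 0, 0.984 and 2.06 FPKM. The summed level of the whole list of 16, members under the limit included, was 33.1, 20.6 and 37.6 FPKM against 16.9, 22.3 and 20.8 FPKM, with overlap. Tapbp, which loads peptide on MHC class I, was at 0.0166, 0.355 and 0.130 FPKM against 1.89, 1.49 and 2.30 FPKM, opposite in sign to the other 9 of 10 MHC class I genes measured, of which several have near-identical copies and are uncertain. The 5 MHC class II genes measured were positive. A gene under 1 FPKM in controls was measured only if its transgenic mean reached the limit, which favours a positive sign. This holds for the interferon list too, so the counts of positive members in these low lists are not evidence of a difference. The summed level of the whole class II list of 7, members under the limit included, was 25.1, 1.83 and 5.68 FPKM against 1.19, 6.54 and 2.60 FPKM. Transgenic library 1 alone was far above the rest, and without it 3 of the 5 were positive.

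That library also held transcripts of the pituitary. Gh (growth hormone) was at 11228 FPKM in transgenic library 1 and between 0.930 and 14.8 FPKM in the other 5, Prl (prolactin) at 1482 FPKM against at most 1.89 FPKM, and Pomc at 547 FPKM against at most 2.65 FPKM. Cga and Lhb, subunits of pituitary glycoprotein hormones, were at 158 and 54.0 FPKM there and listed at 0 in the other 5. Chga (chromogranin A), which neurons also express, was at 106, 63.0 and 63.7 FPKM against 61.6, 49.1 and 51.6 FPKM. Ttr, a gene of the choroid plexus, was at 439, 30.1 and 63.5 FPKM against 29.3, 32.1 and 15.1 FPKM. Hemoglobin genes, summed with the low Alas2, were at 72.3, 33.0 and 21.6 FPKM against 35.5, 35.8 and 12.7 FPKM. The part of such tissue in the MHC class II, interferon and Chga values was not tested. Without transgenic library 1 the log2 fold changes of Gh and Prl were -2.64 and -2.65.

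Metabolic genes gave few separate groups. Of 11 heme synthesis genes 9 were positive (median 0.14). Gsr (glutathione reductase) was at 8.28, 8.65 and 9.26 FPKM against 6.11, 6.48 and 6.43 FPKM (log2 fold change 0.45, SE 0.17), and Cat (catalase) at 14.0, 11.4 and 12.7 FPKM against 5.78, 11.2 and 9.83 FPKM. Txnrd1 (thioredoxin reductase) was lower, at 10.5, 9.83 and 10.0 FPKM against 12.5, 12.8 and 11.5 FPKM.

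Of 34 nuclear genes of oxidative phosphorylation 23 were positive (median 0.12), and without transgenic library 3 only 9 were (median -0.07). Ndufa4 was at 94.5, 108 and 114 FPKM against 136, 140 and 130 FPKM, and Cox6a1, a subunit of cytochrome c oxidase, at 152, 271 and 264 FPKM against 398, 277 and 287 FPKM. Of 13 mitochondrially encoded genes 2 were measured, and mt-Nd5 was at 1607 FPKM in transgenic library 1 and 1535 FPKM in control library 3 and listed at 0 in the other 4.

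**Figure D4:**
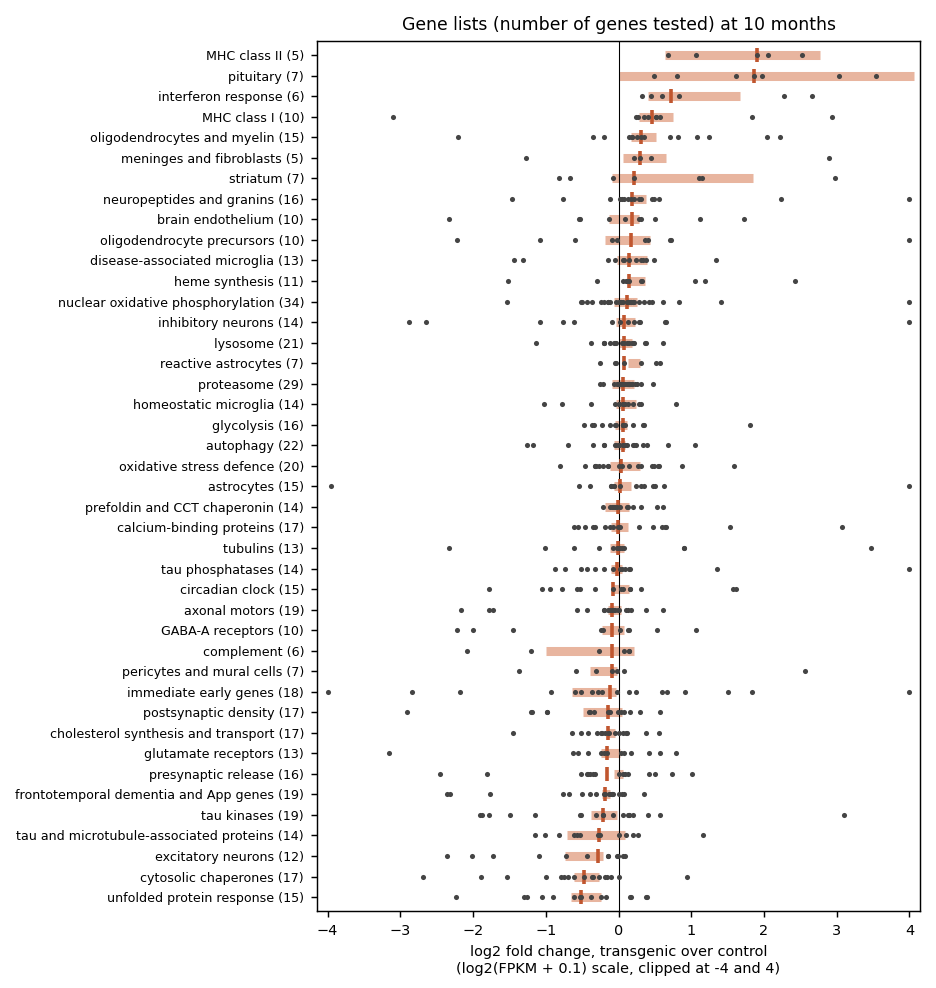
Log2 fold changes at 10 months of the members (dots) of each gene list with at least 5 genes tested, the median (orange tick) and the range of that median with 1 of the 6 libraries left out (pale bar). The endoplasmic reticulum (unfolded protein response) and cytosolic chaperone lists have the lowest medians, -0.52 and -0.47, with bars that stay below 0. The bars of excitatory neurons (-0.73 to -0.21), tau kinases, immediate early genes and pericytes also stay below 0. So do those of the cholesterol and the frontotemporal dementia and App lists. The pituitary bar reaches 0.

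Genes of the brain's endothelium and of the circadian clock gave a few members without overlap. Of 10 endothelial genes 2 were lower without overlap, against 4.01% of all genes. Of 15 clock genes 2 were higher without overlap, against 4.52% of all genes. Bsg (basigin, abundant in brain endothelium) was at 104, 128 and 122 FPKM against 189, 185 and 143 FPKM (log2 fold change -0.53, SE 0.24), and Abcb1a, the drug efflux pump of the blood-brain barrier, at 0.522, 0.355 and 0.0918 FPKM against 1.97, 1.59 and 1.88 FPKM. Both were lower, while 6 of the 10 endothelial genes measured were positive. Tef, a clock output transcription factor, was at 7.66, 21.1 and 34.4 FPKM against 4.70, 6.26 and 6.93 FPKM. Genes of glycolysis (9 of 16 positive), presynaptic release (8 of 16) and the CCT chaperonin and prefoldin (7 of 14) were divided nearly evenly, and leaving out 1 library gave majorities of either sign in each of the 3 lists.

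Over all lists together, 592 distinct genes were measured, of which 30 were higher without overlap (5.07%, against 4.52% of all genes) and 27 lower (4.56%, against 4.01%). None of the 592 passed the threshold.

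Few genes separated the labels at both ages. Of the 424 genes higher at 10 months without overlap, 22 (5.19%) were also higher at 3 months, against 4.30% of all genes, and of the 377 lower, 16 (4.24%) were also lower, against 3.41%. In the opposite direction, 13 of the higher genes (3.07%) were lower at 3 months, and 21 of the lower genes (5.57%) were higher. Beside Alad, Lcmt1 and Coa3, they include Cd68, a lysosomal membrane protein of microglia and macrophages. It was at 6.06, 5.87 and 5.62 FPKM against 4.33, 4.70 and 3.78 FPKM at 10 months and at 5.15, 6.12 and 6.60 FPKM against 4.62, 4.87 and 5.07 FPKM at 3 months. Its neighbour Mpdu1 (chromosome 11, 69656697 to 69662642, minus strand), a gene of dolichol-linked sugar use, was at 11.5, 11.3 and 14.8 FPKM against 5.44, 8.91 and 8.27 FPKM, and at 12.0, 12.1 and 9.55 FPKM against 9.19, 9.51 and 9.41 FPKM at 3 months.

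Proteins of the secretory pathway lay on both sides. Nucb1, a Golgi calcium-binding protein, was at 18.2, 13.6 and 13.3 FPKM against 13.05, 10.3 and 8.23 FPKM and at 15.6, 12.9 and 13.2 FPKM against 7.54, 11.5 and 6.97 FPKM at 3 months. Calu, a calcium-binding protein of the endoplasmic reticulum, was at 7.63, 8.70 and 7.24 FPKM against 9.20, 11.2 and 9.89 FPKM and at 8.71, 6.72 and 5.61 FPKM against 9.77, 8.75 and 8.97 FPKM at 3 months. These genes were chosen after their values at both ages were seen, and the number shared between the ages is near the background.

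Genes with widely separated groups at 10 months mostly had overlapping groups at 3 months. In 71 genes (0.756%) the groups were at least 2 times apart, 33 higher and 38 lower. In 64 of them (90.1%) the 3-month libraries of a single label lay on both sides of the geometric midpoint of that gap. In 6 all 3-month libraries lay on 1 side of it, and in 0 did it divide them by label in the same way. The 3-month groups themselves overlapped in 63. They were apart in the same direction in 4, Lcmt1 among them, and in the opposite direction in 4. A library inside the gap also counts on a side of the midpoint, so these counts do not show that values take 2 levels. The counts were not set beside those of other genes. Ogfrl1 was at 11.6, 11.0 and 11.8 FPKM against 1.22, 1.42 and 1.29 FPKM, and at 3 months at 0.440, 10.6 and 9.93 FPKM against 0.935, 0.774 and 0.920 FPKM. Trim13, a ubiquitin ligase of the endoplasmic reticulum, was at 0.112, 0.152 and 0.141 FPKM against 3.32, 3.50 and 2.99 FPKM, and at 3 months at 3.45, 3.90 and 0.120 FPKM against 0, 0.992 and 1.60 FPKM. Ogfrl1 returned to nearly the same pair of levels at the other age, with transgenic libraries at both, whereas 2 of the 3-month controls of Trim13 lay between its 10-month levels.

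The authors' deposited table lists 1088 higher (11.6%) and 1151 lower genes (12.3%) at a log2 fold change of at least 0.58 in size, and 259 of these had p under 0.05 (2.76%). At a limit of 1 it lists 437 higher (4.65%) and 444 lower genes (4.73%). The q-values of the authors' deposited table were under 0.05 for 0 of the 9390 genes, and its p-values were under 0.05 for 421 (4.48%). For Klhl23 the authors' deposited table gives a q-value of 0.577 and for Cabp7 of 0.719.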

How the data were processed

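Strand-specific libraries were made after ribosomal RNA depletion, per the labels' protocols. Per the submitters' processing notes the tools were StringTie 1.3.0, HISAT2 2.0.4, R 3.4.2 and SAMtools, and the builds mm10 and GRCm38; options and gene models are not stated there. The authors deposited FPKM for each gene in each library, beside a fold change (ratio), its log2, and p-values and q-values in the authors' deposited table, whose test is not stated.

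Here FPKM were analysed as log2(FPKM + 0.1), a scale that understates changes of low genes, with limma 3.58.1 in R 4.3.3. All 12 libraries entered with a mean per group (eBayes with trend and robust), and the 10-month transgenic minus control contrast was adjusted by Benjamini-Hochberg over 9390 genes at a threshold of 0.05. Mapt and Thy1 were also compared by a two-sided exact permutation test. Where a group is listed at 0, a log2 value is set by the pseudocount. The test was checked on simulated data, drawn from a normal distribution with each gene's mean and spread. That check does not cover genes that switch between levels or are listed at 0 in a whole group, as Klhl23 is.

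Gene locations are from GENCODE on GRCm38, promoter windows from RefSeq (GRCm38.p6). The 48 gene lists (727 genes, 726 in the tables, 592 measured) and the members were chosen with earlier results of these data known, and are described by counts and medians without a set test. Genes named are those past the threshold; the 12 higher and 12 lower with the smallest p among genes without overlap, above 0 in all 6 libraries and at a mean of 5 FPKM; the 4 per direction with the highest mean listed at 0 in a whole group; up to 3 members per list; up to 6 genes that mark a library; and Mapt, Thy1, Alad, Cabp7, Gh, Prl, Ttr and Hbb-bs. Other genes named, among them Cd68, Mpdu1, Nucb1, Calu, Hdhd3, Pole3, Ogfrl1 and Trim13, were chosen after their values were seen, and some genes that the rule names are not reported here. Alternatives were pseudocounts of 1 and 0.01, other filters, size factors, quantile normalization, a replicate block, library weights, a fold change limit of 0.58, the 6 10-month libraries alone, and leaving out each library; list counts without each library were added after the data were seen.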

Additional observations from a re-analysis of the deposited data

Results flagged for a closer look

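In Tex261, Axl and Cat the groups did not overlap at either age and lay in opposite directions, and these differences between ages were not tested. Tex261, a protein of transport from the endoplasmic reticulum, had a log2 fold change of -2.35 at 10 months and 1.04 at 3 months. Axl, a receptor of phagocytes for dying cells, was at 0.48 and -0.96, and Cat (catalase) at 0.55 and -0.14. The 2 levels of Tex261 recurred within a label, since a 3-month control was at 1.38 FPKM beside 2 at 6.87 and 5.80 FPKM.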

How the results depend on the processing

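The count of genes past the limma threshold (1) was 2 with no filter beyond a value above 0 in 3 libraries (651 at an unadjusted p under 0.05). It was 0 with a filter at 5 FPKM (218 unadjusted), 0 over genes above 0 in all 6 libraries (316), 0 with only the 6 10-month libraries (287) and 0 with the replicate block (351). Leaving out each library gave 4 to 8 genes, Klhl23 among them each time. With the replicate block the limma adjusted p of Klhl23 was 0.981. Replicate numbers do not pair the libraries: the deviations of same-numbered libraries correlated at -0.07, 0.01 and -0.12, and not every library was closest to its own number.

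Mapt turned positive with library weights (0.70) and, on leaving out control 1 or transgenic 3, reached 0.49 and 0.64. With 1 library left out its log2 fold change ranged from -1.18 to 0.64, that of Thy1 from -0.69 to 0.040 (without control 2), of Gh from -2.64 (without transgenic 1) to 4.07, and of Prl from -2.65 (without transgenic 1) to 4.28. Hbb-bs ranged from -0.29 (without control 3; -0.09 without transgenic 1) to 0.75, and Pole3 from -0.95 to 0.45 (without transgenic 1). Of 1834 alternative values for 99 genes, 1820 kept their direction and their side of the threshold, 9 turned direction, 3 no longer passed and 2 newly passed. The authors' deposited table lists 881 genes when its log2 fold change must reach 1, in place of 1088 higher and 1151 lower at 0.58. With the depth unknown, values near 0 carry no interval, and 3 against 3 libraries leave most differences under their standard error.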
